A study of Homo sapiens with 6 samples.

Results

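The transcription factors that drive epithelial-mesenchymal transition (EMT) were followed in 3 MLL3 knockout and 3 control RNA-seq libraries. The cells were MDA-MB-231, an established breast cancer line that the labels class as triple-negative. A list of 10 such factors was set out (ZEB1, ZEB2, SNAI1, SNAI2, TWIST1, TWIST2, TCF4, FOXC1, FOXC2 and PRRX1), and a gene was taken where its symbol stood in the authors' deposited table. Of the 10, 6 were among the 15706 genes of the table: ZEB1, ZEB2, SNAI1, SNAI2, TCF4 and FOXC1. TWIST1, TWIST2, FOXC2 and PRRX1 were not analysed here. The knockout group is labelled sgMLL3, for a guide RNA against MLL3 (gene KMT2C), an enzyme that methylates histone H3 at enhancers. The control group is labelled sgNT, with a wild-type genotype. Both groups were grown in DMEM with serum and were left untreated. Each group has biological replicates numbered 1 to 3. The labels do not say whether a replicate was a separate culture, a clone or a pool, or whether the numbered guides differed, so p-values measure the spread between these libraries. By its title, the series concerns MLL3 loss in metastasis and a hybrid of the epithelial and mesenchymal states.

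EMT factors bind DNA at E-boxes or forkhead sites, silence genes of cell-cell junctions and favour a motile, matrix-producing cell. ZEB1 and ZEB2 are zinc finger homeobox proteins, and SNAI1 (Snail) and SNAI2 (Slug) are zinc finger proteins; all 4 repress the gene of E-cadherin through E-boxes. TCF4 is a basic helix-loop-helix protein of the E protein class, distinct from the WNT effector TCF7L2, and FOXC1 is a forkhead factor known from basal-like breast cancer. MDA-MB-231 is a mesenchymal-like line. ZEB1 and ZEB2 are also known targets of the miR-200 family, whose microRNAs hold epithelial cells in their state and are in turn repressed by ZEB proteins.

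The mature miR-200 microRNAs are shown because the ZEB genes stood apart from the other factors in matches to them. Sequences are from RefSeq on GRCh38.p14, and capitals mark the seed, bases 2 to 8. They fall into a pair of seed groups.
hsa-miR-200b-3p: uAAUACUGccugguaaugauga
hsa-miR-200c-3p: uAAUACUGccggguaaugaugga
hsa-miR-429: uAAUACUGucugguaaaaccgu
hsa-miR-200a-3p: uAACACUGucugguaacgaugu
hsa-miR-141-3p: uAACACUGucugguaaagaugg
Matches to either seed (CAGTATT or CAGTGTT) were counted in the 3' UTR of the longest coding transcript of GENCODE 29. ZEB1 held 9 matches in 2549 bases, 6 of the first kind and 3 of the second. ZEB2 held 9 in 5370 bases, 5 and 4 of the kinds. Of 13023 tested genes with a 3' UTR, 6 held 9 or more, the ZEB genes among them, and 32.7% held at least 1. TCF4 held 3 matches, SNAI2 and FOXC1 held 1 each and SNAI1 none. These counts are not scaled by length, and the median 3' UTR had 1391 bases. Per kilobase, ZEB1 held 3.5 matches, ZEB2 1.7, SNAI2 0.83, FOXC1 0.56 and TCF4 0.53, beside 0.26 over all such genes. A site of each ZEB gene and the single FOXC1 site are shown with the match in capitals.
ZEB1 first-kind site: ttgttttatcttatCAGTATTa
ZEB2 first-kind site: gcactaccatacatCAGTATTt
FOXC1 second-kind site: ggtttattaaaggaCAGTGTTa
A match is a description of these letters. Mature microRNAs were not analysed here.

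The promoters of ZEB1 and FOXC1 are shown because these were the members that passed the test, in opposite directions. The E-box CACCTG, which ZEB and SNAI proteins bind, was searched with its reverse complement CAGGTG in windows of 250 bases before to 50 bases after each RefSeq start. It was present in 20.6% of 35116 such windows. ZEB1 has 7 windows, of which 2 held the motif, and one of these held 3 copies, as did 0.635% of all windows at 3 or more copies. FOXC1 and ZEB2 have 1 window each, without the motif. Neither SNAI gene had a window to search, and none of the 10 TCF4 windows held it. The ZEB1 window (chr10:31318966-31319265, plus strand, GRCh38.p14) has 61.7% GC, and capitals mark the motif.
ZEB1: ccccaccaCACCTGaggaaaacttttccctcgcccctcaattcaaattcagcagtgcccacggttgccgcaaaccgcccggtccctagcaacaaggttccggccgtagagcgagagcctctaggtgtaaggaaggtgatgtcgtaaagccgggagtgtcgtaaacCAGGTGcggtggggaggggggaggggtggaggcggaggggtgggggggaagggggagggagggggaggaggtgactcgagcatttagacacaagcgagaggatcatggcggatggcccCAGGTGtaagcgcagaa
The FOXC1 window (chr6:1609665-1609964, plus strand) has 72.7% GC, against a median of 58.7% over all windows.
FOXC1: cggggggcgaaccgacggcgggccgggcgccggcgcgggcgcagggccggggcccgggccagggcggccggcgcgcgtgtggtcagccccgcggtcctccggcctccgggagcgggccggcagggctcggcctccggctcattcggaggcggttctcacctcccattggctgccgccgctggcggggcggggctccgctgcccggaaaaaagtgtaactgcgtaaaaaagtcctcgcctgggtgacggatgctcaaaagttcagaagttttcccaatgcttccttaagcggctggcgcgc

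Depth was 41401044 to 49514464 recovered reads in the knockout libraries and 41240265 to 48244821 in the control libraries. KMT2C was read at 1519, 1660 and 1339 normalized counts in the knockout libraries and 1367, 1379 and 1255 in the control libraries (log2 fold change 0.17, SE 0.10, limma adjusted p = 0.20), which gives no check of the knockout at the level of its transcript. Normalized counts are reads divided by 1 size factor per library. Fold changes are knockout over control on the log2(value + 1) scale, on which low genes appear to change less than they did. A gene counts as called where its limma adjusted p over 14618 genes was under 0.05. Of all genes tested, 33.2% were called, 18.9% higher and 14.4% lower. Fold changes followed the GC content of the transcripts (Spearman's rho -0.673 across genes, which are not independent replicates): the median log2 fold change was 0.44 in the class of lowest GC content and -0.27 in that of the highest, among 10 classes of about 1460 genes each. Each member is therefore also given after this trend with GC content and length was subtracted from every library, called trend removal here. Of the line's markers, VIM, which encodes vimentin, stood at 22037, 22344 and 20718 counts in knockout and 24447, 24497 and 24143 in control libraries. Of the 6 genes listed as present in this line, CAV1 was called higher (0.27, limma adjusted p = 0.024) and AXL lower (-0.28, 0.012). VIM, CD44, EGFR and KRT18 did not pass. With the trend removed CAV1 and AXL did not pass, and VIM was lower (-0.20, limma adjusted p = 0.024). CDH1, which encodes E-cadherin, stood at 2.11 to 5.51 in knockout and 3.86 to 7.52 in control libraries, and ESR1 and PGR were not among the rows. The other 3 genes listed as low in this line were present: ERBB2, which encodes HER2, at 4581 to 5282 counts in knockout and 5612 to 6016 in control libraries, EPCAM at 861 to 999 in knockout and 765 to 796 in control libraries, and GATA3 at 426 to 505 in knockout and 572 to 674 in control libraries. RNA of a culture is a mixture, so fewer cells of a kind and less RNA per cell cannot be told apart.

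Among the 6 factors 1 was called higher (ZEB1) and 1 lower (FOXC1), where 18.9% of all genes tested were called higher and 14.4% lower. The other 4 did not pass the test, and the FOXC1 call was lost with the trend removed. For 5 of the 6 no knockout library fell within the range of the control libraries, 4 with every knockout library above every control library and 1 below, where 46.3% of all tested genes showed no overlap (23.9% above, 22.4% below). All 6 passed the filter of a mean of 10, TCF4 narrowly at 11.4 (13.7 in knockout and 9.17 in control libraries). The median log2 fold change of the 6 was 0.48, against -0.017 for all genes tested, and 0.06 after trend removal. The 0.66 of TCF4, whose groups overlapped, was among the middle values that set the 0.48. The plot of counts by library gives each value.

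**Figure D1:**
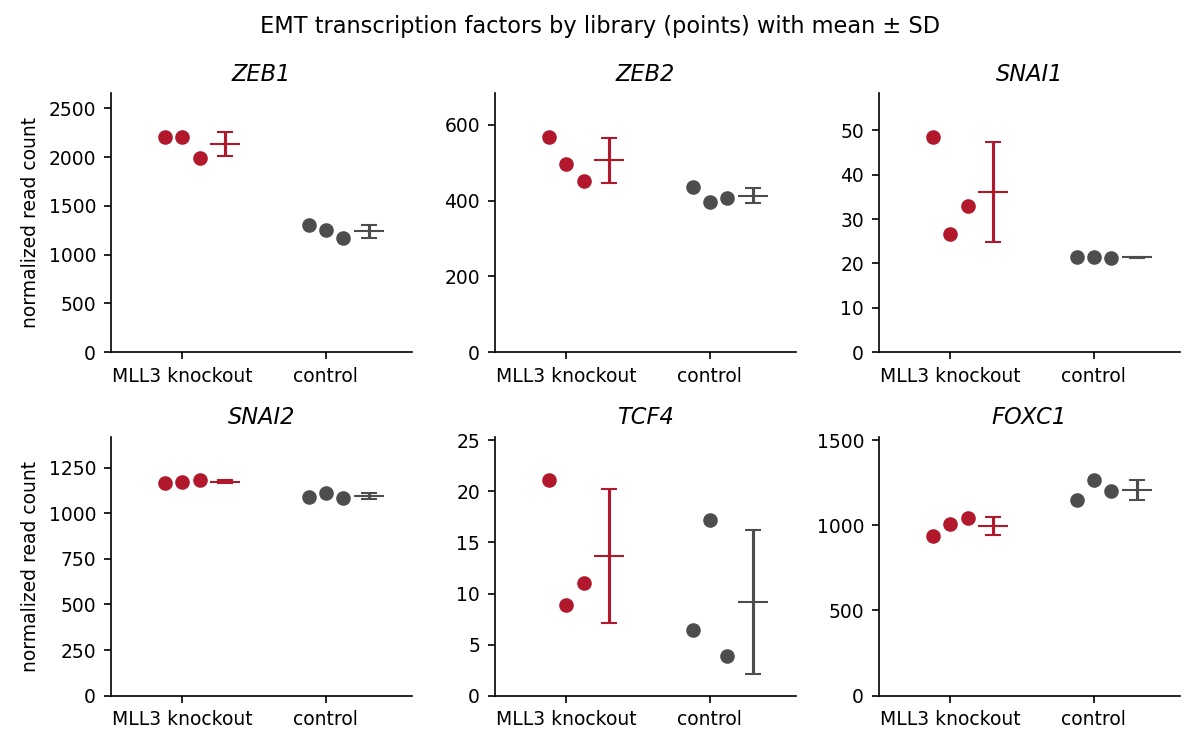
Normalized read counts of the 6 EMT transcription factors in each library (points; MLL3 knockout in red, control in grey; linear axes from 0), with the mean and SD of the 3 libraries of a group beside them. ZEB1 lies at 1989 to 2211 in the knockout and 1169 to 1301 in the control libraries, FOXC1 is lower in every knockout library, and the groups overlap for TCF4.

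ZEB1 (ENSG00000148516.21, chromosome 10, 31318495 to 31529814, plus strand, GENCODE 29 on GRCh38) had 2211, 2206 and 1989 normalized counts in the knockout libraries and 1301, 1249 and 1169 in the control libraries. Every knockout library was above every control library. The means were 2135 ± 127 in knockout and 1240 ± 66.7 in control cells (SD, n = 3 each), a ratio of 1.72. The log2 fold change was 0.78 (SE 0.094, 95% interval 0.59 to 0.98, limma adjusted p = 3.8e-05), and the authors' deposited table lists 0.78 with an adjusted p of 1.99e-13. The longest ZEB1 transcript has a GC content of 38.5%, in the class of lowest GC content. In that class 63.0% of genes were called higher, and ZEB1 ranked 119 of 1460 by fold change. With the trend removed, its log2 values were 10.82, 10.86 and 10.85 in the knockout libraries and 10.49, 10.47 and 10.50 in the control libraries. The rise was then 0.36 (SE 0.061, 95% interval 0.22 to 0.49, limma adjusted p = 0.0048), where 4.08% of all genes were called higher and 5.95% lower. ZEB1 was called higher without each library in turn, both as deposited (0.74 to 0.83) and with the trend removed (0.35 to 0.37, limma adjusted p up to 0.045). ZEB1-AS1, an antisense RNA gene, shares 366 of the 8650 exon bases of ZEB1 and averaged 184 counts in knockout and 127 in control cells. The strand setting of the counting is not given in the sources used here, so reads over those bases cannot be told apart.

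ZEB2 (ENSG00000169554.21, chromosome 2, 144364364 to 144524583, minus strand) is the close relative of ZEB1 and represses many of the same junction genes. It had 569, 497 and 452 normalized counts in the knockout libraries and 436, 397 and 406 in the control libraries. The lowest knockout library stood just above the highest control library. The log2 fold change of 0.29 (SE 0.13, 95% interval 0.02 to 0.56) did not pass (limma adjusted p = 0.09). It passed only without control replicate 1 (0.33, limma adjusted p = 0.047), and turned to -0.15 (SE 0.10, adjusted p = 0.39) with the trend removed. The transcript has 39.1% GC, and genes of its GC class had a median of 0.38. ZEB2-AS1 overlaps 1299 of its 25058 exon bases on the other strand.

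The balance of the ZEB genes was compared as a ratio within each library. The log2 ratio of ZEB1 to ZEB2 counts was 1.96, 2.15 and 2.13 in the knockout libraries and 1.57, 1.65 and 1.52 in the control libraries. Every knockout ratio was above every control ratio, by 0.50 on average (exact two-sided permutation p = 0.1, the smallest that 3 against 3 allows, and 0.1 adjusted over the 2 ratios compared). The pair has nearly the same GC content, and the difference was 0.51 with the trend removed, where the ratio was 1.95 to 2.17 in knockout and 1.51 to 1.64 in control libraries.

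SNAI1 (ENSG00000124216.4, chromosome 20, 49982999 to 49988886, plus strand), often an early factor in EMT, was low. It had 48.6, 26.6 and 33.0 normalized counts in the knockout libraries and 21.5, 21.5 and 21.3 in the control libraries, from 46, 30 and 36 reads in knockout and 20, 20 and 22 reads in control libraries. All knockout values were above the control values, with knockout replicate 1 the highest. The log2 fold change of 0.68 (SE 0.36, 95% interval -0.07 to 1.43) did not pass (limma adjusted p = 0.15). The closeness of the control libraries was below counting error: 20 reads carry an exact 95% Poisson interval of 12.2 to 30.9, and the 30 reads of knockout replicate 2 one of 20.2 to 42.8, for counting error only. The transcript has 58.2% GC, in a class where 0.411% of genes were called higher and 28.2% lower. Within that class SNAI1 ranked 19 of 1460 by fold change. Trend removal gave 0.92 (SE 0.34, 95% interval 0.18 to 1.65, limma adjusted p = 0.11). Without knockout replicate 1 the value as deposited was 0.45.

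SNAI2 (ENSG00000019549.13, chromosome 8, 48917604 to 48921740, minus strand), the more abundant Snail relative in these cells, was read at 1168, 1170 and 1182 normalized counts in the knockout libraries and 1089, 1113 and 1082 in the control libraries. The groups did not overlap, with means of 1173 ± 7.38 in knockout and 1095 ± 16.1 in control cells (SD, n = 3 each). The log2 fold change was 0.10 (SE 0.095, 95% interval -0.10 to 0.30, limma adjusted p = 0.44). With the trend removed it was -0.20 (SE 0.077, 95% interval -0.37 to -0.04, adjusted p = 0.12), and it was called lower without control replicate 1 (-0.25, limma adjusted p = 0.017). The log2 ratio of SNAI1 to SNAI2 was -4.56, -5.41 and -5.12 in the knockout libraries and -5.60, -5.63 and -5.60 in the control libraries. It was higher in knockout by 0.58 (exact two-sided permutation p = 0.1, the smallest possible), and by 1.12 with the trend removed. It was 0.35 without knockout replicate 1.

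TCF4 (ENSG00000196628.18, chromosome 18, 55222331 to 55664787, minus strand) was near the limit of detection. It had 21.1, 8.86 and 11 normalized counts in the knockout libraries and 6.46, 17.2 and 3.86 in the control libraries, from 20, 10 and 12 reads in knockout and 6, 16 and 4 in control libraries. The groups overlapped. The log2 fold change of 0.66 (SE 0.61, 95% interval -0.61 to 1.93, limma adjusted p = 0.42) did not pass, and its interval covers both directions. It was 0.24 without control replicate 3, 0.32 without knockout replicate 1 and 1.2 without control replicate 2, and 0.21 with the trend removed. The authors' deposited table has a blank adjusted p for TCF4.

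FOXC1 (ENSG00000054598.9, chromosome 6, 1609972 to 1613897, plus strand) had 938, 1010 and 1043 normalized counts in the knockout libraries and 1148, 1265 and 1204 in the control libraries. Every knockout library was below every control library. It fell to 997 ± 53.8 in knockout cells, against 1206 ± 58.4 in control cells (SD, n = 3 each), a ratio of 0.827. The log2 fold change was -0.27 (SE 0.099, 95% interval -0.48 to -0.07, limma adjusted p = 0.042), and the authors' deposited table lists -0.27 with an adjusted p of 0.024. FOXC1 has 56.3% GC, and the 1460 genes of its GC class had a median log2 fold change of -0.21, with 28.2% called lower. With the trend removed it was -0.098 (SE 0.073, 95% interval -0.26 to 0.06, limma adjusted p = 0.44). The call was also lost without knockout replicate 1 (-0.23, limma adjusted p = 0.16), knockout replicate 2 (-0.28, 0.12), control replicate 2 (-0.24, 0.15) or control replicate 3 (-0.27, 0.082).

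**Figure D2:**
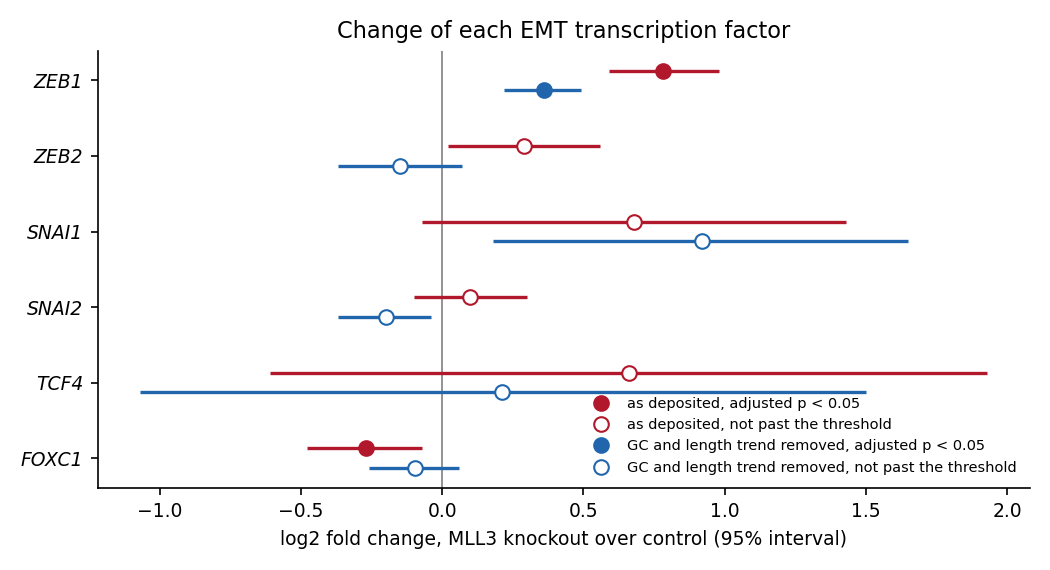
Log2 fold change of each factor, knockout over control, with its 95% interval, as deposited (red) and with the GC and length trend removed (blue); filled points have a limma adjusted p under 0.05. ZEB1 is filled in both at 0.78 and 0.36, FOXC1 as deposited alone, and ZEB2 and SNAI2 lie on opposite sides of 0 in the 2 analyses.

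**Figure D3:**
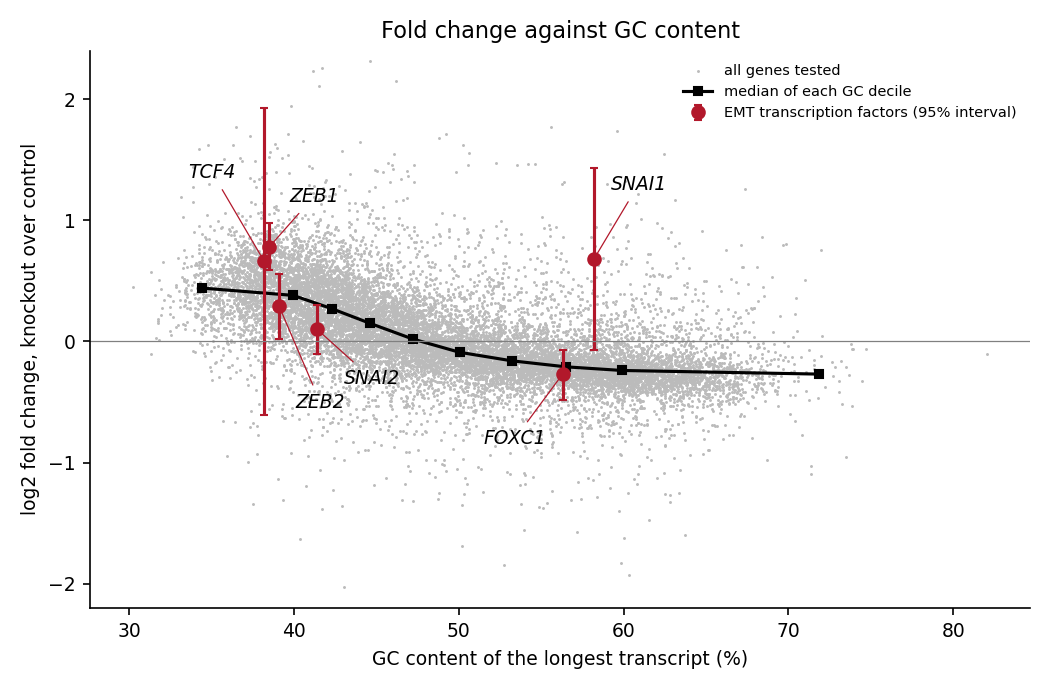
Log2 fold change of the tested genes (grey points; 2 lie outside the axis) against the GC content of the longest transcript, with the median of each of 10 classes of GC content (black squares, at the middle of its range) and the 6 factors with 95% intervals (red). FOXC1 and ZEB2 lie close to the medians of their classes, ZEB1 lies above its own, and SNAI1 lies far above the genes of like GC content with a wide interval.

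Levels were compared between genes per kilobase of the longest transcript. In the knockout libraries SNAI2 stood at 413 to 418 normalized counts per kilobase, ZEB1 at 317 to 353, FOXC1 at 239 to 266, ZEB2 at 47.2 to 59.4, SNAI1 at 15.8 to 28.8 and TCF4 at 1.06 to 2.53. In the control libraries the order was SNAI2 at 383 to 393, FOXC1 at 292 to 322, ZEB1 at 186 to 208, ZEB2 at 41.5 to 45.5, SNAI1 at 12.6 to 12.8 and TCF4 at 0.463 to 2.06. No neighbours in either order overlapped. ZEB1 and FOXC1 thus changed places between the groups. That exchange rests on the length taken: per kilobase of all annotated exons ZEB1 averaged 247 in knockout and 143 in control cells, below FOXC1 at 254 and 307. SNAI2 lay above 60.3% of tested genes in level per kilobase, FOXC1 above 52.8%, ZEB1 above 52.0%, ZEB2 above 24.5%, SNAI1 above 12.8% and TCF4 above 0.185%.

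The genes whose log2 values, centred over the 6 libraries, lay nearest to those of a member were found by root mean square distance, among genes with a mean of at least 100 counts. Nearest to ZEB1 were EDEM3 (distance 0.023), UGGT2 (0.028) and CHD1 (0.029), with GC contents of 38.6%, 37.6% and 38.1% beside 38.5% for ZEB1. Nearest to ZEB2 were THOC7 (0.027), MTHFD2L (0.029) and ERI2 (0.033), and nearest to SNAI2 were TTLL5 (0.017), HEXIM1 (0.018) and MAT2A (0.018). FOXC1 was nearest to TMEM39B (0.029), ATG7 (0.029) and TRIM25 (0.031). The nearest genes to SNAI1 were SWT1 (0.078), DDIAS (0.13) and ST6GALNAC5 (0.14), with GC contents of 38.1% to 43.0% where SNAI1 has 58.2%. TCF4 had no close neighbour, the nearest being FAS at 0.38. Among the members ZEB2 and SNAI2 were the closest pair (0.15), and ZEB1 was nearer to SNAI1 (0.25) than to ZEB2 (0.26) by little.

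Genes that act with, on or below these factors were taken from 7 lists. Of 137 such genes tested, 54 were called (39.4%), beside 33.2% of all genes, and 21 with the trend removed, where 10.0% of all genes were called. For the counts by list below, the shares of all genes were 18.9% higher and 14.4% lower. With the trend removed they were 4.08% higher and 5.95% lower. The plot of the network gives the spread of each list.

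**Figure D4:**
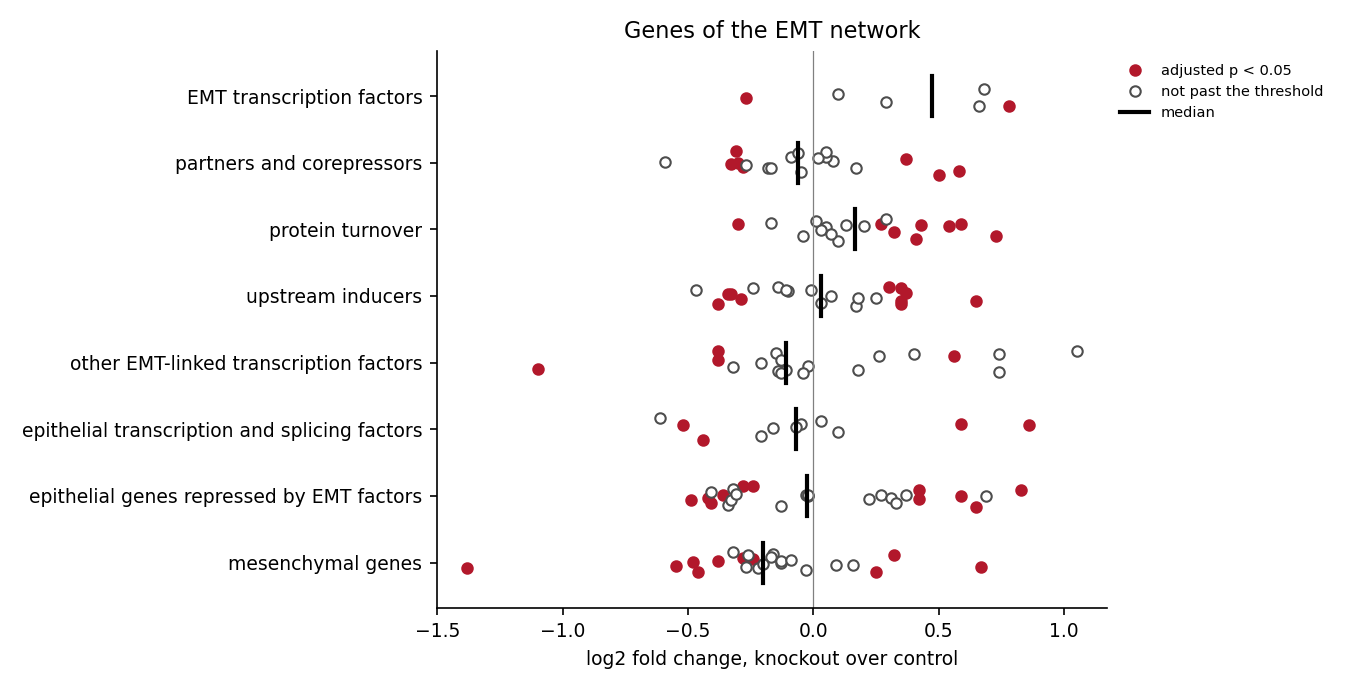
Log2 fold change, knockout over control, of the 6 factors and of the tested genes of 7 lists linked to them; red points have a limma adjusted p under 0.05, open points do not, vertical jitter has no meaning and black bars are medians. Each of the 7 lists holds called genes on both sides of 0, with medians from -0.20 for mesenchymal genes to 0.17 for protein turnover.

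Partners and corepressors of the factors counted 3 higher and 4 lower of 19 (median -0.06). TCF12, an E protein like TCF4, rose by 0.58 (SE 0.10, limma adjusted p = 6e-04), and the E protein TCF3 fell by 0.30 (adjusted p = 0.012). SUZ12, a subunit of Polycomb repressive complex 2, rose by 0.50 and the deacetylase HDAC2 by 0.37. CTBP1, a corepressor that ZEB proteins recruit, fell by 0.33 and the chromatin remodeller SMARCA4 by 0.31. None of these 6 passed with the trend removed, where 0 members were higher and 1 lower. The lower one was CTBP2, the relative of CTBP1 (-0.21, limma adjusted p = 0.029). It did not pass as deposited (0.08, limma adjusted p = 0.51).

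Regulators of the turnover of Snail, Twist and ZEB proteins counted 7 higher and 1 lower of 18 (median 0.17), beside 18.9% of all genes higher and 14.4% lower. ATM, a kinase known to stabilise ZEB1, had 2281, 2341 and 1972 normalized counts in knockout and 1308, 1429 and 1245 in control libraries, and rose by 0.73 (SE 0.098, limma adjusted p = 7.5e-05). FBXW7, a substrate receptor of ubiquitin ligases, rose by 0.59 and PSMD14, a deubiquitinase of the proteasome, by 0.43. CTDSP1, a phosphatase that acts on SNAI1, fell by 0.30. ATM (0.27, adjusted p = 0.028) and FBXW7 (0.49, adjusted p = 0.018) also passed with the trend removed, where the list counted 2 higher and 2 lower.

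Upstream inducers counted 6 higher and 4 lower of 21 (median 0.03). HIF1A, the oxygen-regulated factor, rose by 0.65 (limma adjusted p = 5.3e-05), CTNNB1, which encodes beta-catenin, by 0.35 and SMAD2, a mediator of TGF-beta signals, by 0.35. NOTCH1 fell by 0.38, RELA, a subunit of NF-kappaB, by 0.34 and the kinase AKT1 by 0.33. HIF1A (0.23) and NOTCH1 (-0.21) passed with the trend removed, where 1 member was higher and 2 lower. SMAD2 was then -0.12 (limma adjusted p = 0.23). SMAD3, also a mediator of TGF-beta signals, was lower as deposited (-0.29, limma adjusted p = 0.013) and with the trend removed (-0.25, 0.019).

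Other transcription factors linked to EMT counted 1 higher and 3 lower of 19 (median -0.11). TEAD1, the DNA-binding partner of YAP, rose by 0.56 (limma adjusted p = 0.00026). GLI2, an effector of Hedgehog signalling, had 186, 227 and 251 counts in knockout and 628, 351 and 473 in control libraries, and fell by 1.10 (adjusted p = 0.00035). HMGA1 and FOXF2 each fell by 0.38. TEAD1 (0.20) and GLI2 (-0.91) passed with the trend removed.

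Factors that hold the epithelial state counted 2 higher and 2 lower of 11 tested (median -0.07). The ETS factor EHF rose by 0.59 (limma adjusted p = 0.00041). TFAP2A fell by 0.52 and GATA3 by 0.44. EHF (0.33) and TFAP2A (-0.48) passed with the trend removed. OVOL1, OVOL2 and GRHL2, known opponents of ZEB1, were not among the rows.

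Epithelial genes known to be repressed by EMT factors counted 5 higher and 6 lower of 26 (median -0.03). The desmosome gene DSP rose by 0.42 (limma adjusted p = 0.0013), the polarity gene PATJ by 0.59 (adjusted p = 0.002) and the microtubule-binding MAP7 by 0.83 (adjusted p = 0.017). CLDN4, a tight junction claudin, fell by 0.36, the junction protein gene JUP by 0.42 and the keratin gene KRT19 by 0.28. With the trend removed 3 were higher and 0 lower, DSP (0.36) and PATJ (0.36) among them. CDH1, the best known target, was below the filter in both groups.

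Mesenchymal genes counted 3 higher and 7 lower of 23 (median -0.20). CALD1, which encodes the actin-binding caldesmon, rose by 0.67 (limma adjusted p = 4.6e-05), FN1, fibronectin, by 0.32 and LOX, a matrix cross-linking oxidase, by 0.25. COL1A2, a chain of type I collagen, fell to 272 ± 41.6 counts in knockout cells, against 705 ± 35.8 in control cells (SD, n = 3 each; log2 fold change -1.38, adjusted p = 1.4e-05). PDGFRB, a receptor of platelet-derived growth factors, fell by 0.48 and the ligand WNT5B by 0.46. VIM did not pass as deposited (-0.17, adjusted p = 0.088) and was -0.20 (adjusted p = 0.024) with the trend removed. CALD1 (0.36) and COL1A2 (-1.70) passed with the trend removed as well, where the list counted 2 higher and 3 lower. FN1 (0.00042), LOX (-0.14) and WNT5B (-0.24) did not pass with the trend removed. Of 9 fibroblast markers 4 were among the rows and their summed counts were 1012 to 1105 in knockout and 1732 to 1908 in control libraries, with DCN, LUM, FAP, PDGFRA and THY1 not among the rows. All 4 are also in the mesenchymal list: COL1A1, COL1A2 and PDGFRB fell, and COL3A1 did not pass (log2 fold change -0.13, limma adjusted p = 0.73). With the trend removed only COL1A2 of the 4 passed. COL1A1 was then -0.36 (limma adjusted p = 0.21) and PDGFRB -0.31 (0.091). The part of the fibroblast markers in the change of that list was not tested. Of 6 leukocyte markers 4 were among the rows, with sums of 240 to 335 counts in knockout and 355 to 425 in control libraries, and of 4 endothelial markers 3, with sums of 166 to 207 in knockout and 222 to 292 in control libraries. The endothelial KDR was called lower as deposited (-0.66, limma adjusted p = 0.012) and with the trend removed (-0.72, 0.02), and PECAM1 did not pass. No leukocyte marker passed as deposited, and PTPRC was lower with the trend removed (-0.76, limma adjusted p = 0.013).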

How the data were processed

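RNA of 6 libraries was sequenced. Per the submitters' processing notes, the tools included STAR 2.4.0 as well as featureCounts 1.5.0, with DESeq2 1.30.1 and FastQC, on build GRCh38.p13. Which annotation, strand setting or filter the authors used is not given in the sources used here. Their deposited table holds, per the file headers, a normalized count for each library (a signal), their mean, and the authors' log2 fold change with its standard error, the Wald score, the p-value and the adjusted p-value. No listed gene had fewer than 1 read in any library.

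Values divided by the step of their library lay within 0.01 of a whole number for 100% of genes. Genes with a mean of 10 or more (14618) were transformed to log2(value + 1) and tested two-sided in limma 3.58.1 under R 4.3.3, its variance prior following expression, with Benjamini-Hochberg adjustment at 0.05. As alternatives, the recovered reads were tested in edgeR 4.0.16 and in DESeq2 1.42.0. GC content and length are those of the longest GENCODE 29 transcript; 15681 genes matched and 14598 tested genes had both. For trend removal, splines of 5 terms each were fitted to the gene-centred values of a library and subtracted. Scripts were tested on simulated data. Named genes were the members, KMT2C, the nearest genes in pattern, line and cell type markers, and up to 3 called genes per direction of each of the 7 lists with the smallest adjusted p. SMAD3 and CTBP2 were added after seeing the data, as relatives of named genes. The members and lists were chosen with earlier results of these data known. Alternatives were other pseudocounts, filters and scalings, the replicate block, and each library left out; leaving out libraries with the trend removed was added after seeing the data. One gene that this rule names is not reported here.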

Additional observations from a re-analysis of the deposited data

How the results depend on the processing

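ZEB1 kept its direction and call under all 22 alternatives. Trend removal left 1463 of all genes called (595 higher, 868 lower, or 40.7% higher, against 56.8% of the 4859 as deposited), 0 members lower and 21 related genes; it turned ZEB2 to -0.15 and SNAI2 to -0.20, and the SNAI1 to SNAI2 difference was 1.12. Quantile normalization, other pseudocounts and filters, edgeR (4912 genes) and DESeq2 (5214 genes) kept the counts of members. Without 1 library, all genes called ranged from 2143 to 6168, related genes from 24 to 66, members higher from 1 to 2 and lower from 0 to 1. With the trend also removed, all genes (and related genes) called were 379 (3) without knockout replicate 1, 415 (4) without 2 and 604 (6) without 3, and 3600 (54) without control replicate 1, 732 (9) without 2 and 886 (13) without 3. In that order of libraries ZEB2 was -0.21, -0.12, -0.13, -0.15, -0.19 and -0.11, and SNAI2 -0.16, -0.20, -0.25, -0.25, -0.20 and -0.17. TCF4 was -0.092 without knockout replicate 1 and -0.16 without control replicate 3. Of the members 1 stayed higher, and 1 was lower without control replicate 1 and 0 without any other library. In a principal component analysis of the log2 values as deposited, control replicate 1 stood at 34.9 on the second axis (20.3% of variance). The other libraries stood at -15.1 to -2.03 on that axis. The cause was not tested.

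Whether the replicate numbers pair the libraries was not settled. Correlations of deviations between same-numbered libraries were 0.0658, 0.00629 and 0.129, against -0.0994 to 0.0272 between libraries of different number. Libraries numbered 1 and 3 correlated best with their own number, and those numbered 2 did not. The replicate block called 6265 genes (69 related genes), and 1313 (20 related genes, 0 members lower) with the trend removed, where ZEB2 was -0.15 and SNAI2 -0.20. The paralogue ratios keep their values under the block, 0.50 and 0.58. Low read numbers limit SNAI1 and TCF4; intervals cover counting error only.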
